A study of Mus musculus with 15 samples.

Results

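Skin of the mouse back rests on a thin sheet of striated muscle, the panniculus carnosus, and 48 genes of skeletal muscle were followed here through RNA sequencing of that skin, out of 18929 genes measured. They were chosen by name, as genes of the sarcomere, of calcium handling, of muscle metabolism and of muscle cell identity. Of the 48, 47 passed the filter on low counts. The exception was Myl3, a slow light chain, which stayed at or below 0.769 CPM (counts scaled to library size) in every sample.

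The 15 samples were dorsal skin of male balb/c mice, with 3 samples in each of 5 groups. The study's methods give an age of 4 to 6 weeks for the mice when wounded, so the mice were older at sampling. They give no separate age for normal skin. Full-thickness wounds on the dorsal midline of 10 mm or 15 mm received printed Matrigel beads. In the acellular groups the beads held no cells. In the HDB groups, Matrigel beads carrying human umbilical cord mesenchymal stem cells at high density were placed among acellular beads. The fifth group was normal skin. Per the study's methods the skin was collected 4 weeks after implantation, although the wound experiment is described as ending on day 21. Nothing in the labels says whether the 3 samples of a group came from separate animals, so the p-values measure the spread between these samples, which may in part be technical. How deep each piece of skin was cut, and so how much muscle it took along, is not given in the sources used here. Library totals ran from 15840551 to 18404188 estimated counts.

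Muscle shortens when myosin filaments pull on actin filaments within the sarcomere, and troponin on the actin filament opens that reaction when calcium is released from the sarcoplasmic reticulum. Fast and slow fibres use different copies of the same proteins: fast troponins, fast myosins and calsequestrin 1 in the former, slow troponins, slow myosin and calsequestrin 2 in the latter. Embryonic and perinatal myosins are made in developing and in regenerating fibres, while Pax7 marks satellite cells, the stem cells of muscle, and Myod1 and Myog drive their progeny towards fusion and differentiation. The panniculus carnosus of rodents is known as a fast muscle, and a full-thickness excision removes it with the skin.

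Many of the members share short motifs near their starts that muscle transcription factors are known to bind, and 5 of these regions are shown because the results turn on their genes. Acta1 was the most abundant member, Myoz2 and Myh1 were called lower in wounds, Myh4 lies next to Myh1 in the same myosin cluster and was not called, and Tnnt1 was among the few members with a higher fitted level in wounds. Each line gives the 250 bases before the gene's first listed start, 5′ to 3′ on the gene's strand, from RefSeq (GRCm38.p6). Capitals mark, on either strand, the E box CANNTG, the MEF2 pattern CTANNNNTAG, the sequence TATAAA and the CArG box, the element of serum response factor.
Acta1 (chr8:123894776-123895025, minus strand): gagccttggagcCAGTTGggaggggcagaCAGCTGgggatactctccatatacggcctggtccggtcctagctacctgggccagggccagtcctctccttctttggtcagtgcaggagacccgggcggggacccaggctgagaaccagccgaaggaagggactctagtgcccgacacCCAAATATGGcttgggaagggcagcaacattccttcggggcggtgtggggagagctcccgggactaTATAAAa
Myoz2 (chr3:123034988-123035237, minus strand): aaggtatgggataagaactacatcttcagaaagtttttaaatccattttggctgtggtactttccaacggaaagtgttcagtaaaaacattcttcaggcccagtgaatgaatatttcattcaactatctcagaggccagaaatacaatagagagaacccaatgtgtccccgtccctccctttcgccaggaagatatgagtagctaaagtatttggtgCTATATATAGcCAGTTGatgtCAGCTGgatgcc
Myh1 (chr11:67199852-67200101, plus strand): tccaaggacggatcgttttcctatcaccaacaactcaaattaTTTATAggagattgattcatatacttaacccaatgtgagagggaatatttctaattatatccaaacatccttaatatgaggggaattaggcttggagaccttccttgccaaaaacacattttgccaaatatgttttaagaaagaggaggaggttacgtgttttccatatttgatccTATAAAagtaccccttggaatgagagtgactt
Myh4 (chr11:67237562-67237811, plus strand): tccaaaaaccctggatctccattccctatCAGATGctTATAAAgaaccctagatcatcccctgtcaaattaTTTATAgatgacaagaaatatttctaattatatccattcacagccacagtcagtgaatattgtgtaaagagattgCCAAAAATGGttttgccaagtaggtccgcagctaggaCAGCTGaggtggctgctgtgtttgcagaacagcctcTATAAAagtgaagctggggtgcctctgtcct
Tnnt1 (chr7:4515976-4516225, minus strand): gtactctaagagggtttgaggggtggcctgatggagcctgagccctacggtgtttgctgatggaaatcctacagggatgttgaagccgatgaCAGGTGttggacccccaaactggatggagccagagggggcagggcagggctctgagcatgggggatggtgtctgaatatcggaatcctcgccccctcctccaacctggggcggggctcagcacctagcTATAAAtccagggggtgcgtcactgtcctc

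Such a region was at hand for 37 of the 48 members. At least 1 E box of the form CANNTG lay in 30 of the 37 (81.1%), against 66.0% of the 27025 genes with a region of the same length. The form CAGCTG, which is counted within CANNTG as well, lay in 14 (37.8%), against 12.8% of all genes. The MEF2 pattern was found in 4 members (10.8%) against 3.23% of all genes, the CArG box in 4 (10.8%) against 1.4%, and TATAAA in 7 (18.9%) against 13.0%. Acta1 and Myh4 held a CArG box, CAGCTG and TATAAA together. Myoz2 held the MEF2 pattern and 2 E boxes within the last 33 bases of its region, the end of which lies inside the gene as RefSeq bounds it, since its gene record begins upstream of the start used here. Myh1 held neither an E box nor a CArG box in this window. These matches describe letters in the genome, not binding in this skin.

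The 48 genes together made up a large part of normal skin RNA and a smaller, widely varying part of the RNA of wounds. Their share of all counts in a library, in the order of replicates 1, 2 and 3 as everywhere below, was 0.838, 2.24 and 4.63% in acellular 10 mm, 0.485, 3.40 and 0.140% in acellular 15 mm, 6.14, 0.150 and 1.58% in HDB 10 mm, 2.27, 4.47 and 1.56% in HDB 15 mm, and 9.09, 7.37 and 8.33% in normal skin. Each of the 12 wound samples lay below the lowest normal sample. The wounds nevertheless spread 43.8-fold, from 0.140% in acellular 15 mm replicate 3 to 6.14% in HDB 10 mm replicate 1, while normal skin spread 1.23-fold. Within single groups the highest sample exceeded the lowest 5.52-fold at acellular 10 mm, 24.3-fold at acellular 15 mm, 41.0-fold at HDB 10 mm and 2.88-fold at HDB 15 mm. In bulk RNA, fewer muscle fibres and less RNA per fibre cannot be told apart.

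**Figure D1:**
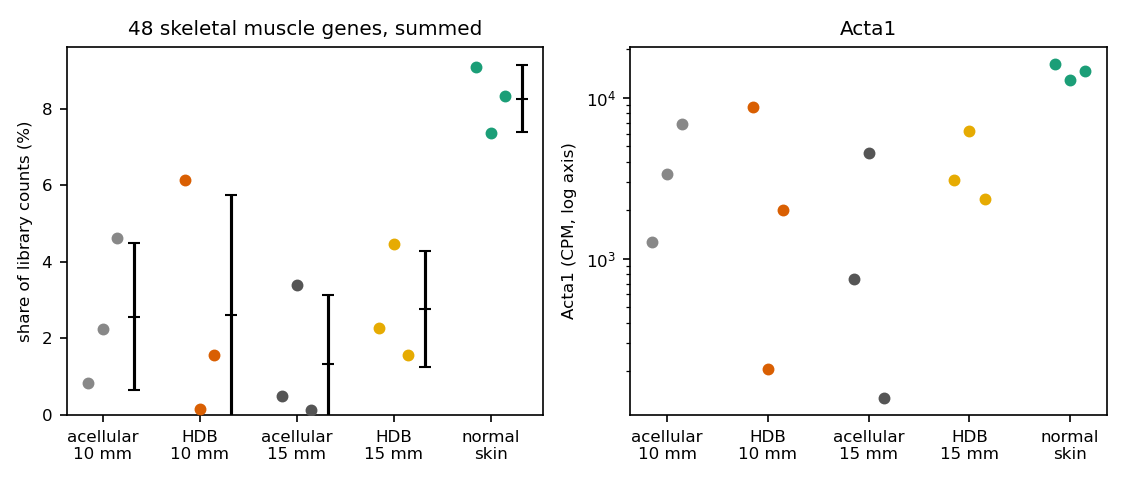
Left, share of all counts of a library (%) that fell on the 48 skeletal muscle genes, with 1 point for each sample and the mean ± SD (n = 3) beside each group, the lower part of the bar being clipped at 0 in HDB 10 mm and acellular 15 mm. Right, Acta1 in CPM on a log axis. The 3 normal samples sit between 7.37% and 9.09%, above all 12 wound samples, and each wound group spreads widely.

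Acta1, skeletal alpha-actin and the main protein of the thin filament, led the list. It measured 1279, 3346 and 6876 CPM in acellular 10 mm, 749, 4518 and 136 in acellular 15 mm, 8737, 205 and 2007 in HDB 10 mm, 3086, 6181 and 2347 in HDB 15 mm, and 16286, 12981 and 14653 in normal skin. All wound samples were below all normal samples, and 2 of them, acellular 15 mm replicate 3 and HDB 10 mm replicate 2, were far below the rest of the wounds. The log2 fold change of wounds against normal skin (mean of the 4 wound groups, quasi-likelihood test of edgeR, p adjusted over 15369 genes by Benjamini-Hochberg) was -2.22 ± 0.82 (SE), adjusted p = 0.0574. DESeq2 called Acta1 lower (-2.24, adjusted p = 0.0259), and so did edgeR in 4 of the 15 fits without 1 library. In the main fit, despite the gap between the groups, the spread between wounds left Acta1 outside the threshold of 0.05.

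The same held for most members. Of the 47 tested, 7 were lower in wounds at an adjusted p under 0.05 and 0 were higher. Over all 15369 genes tested 16.7% were called lower and 14.2% higher, so the members' share of calls (7 of 47) was near that of all genes. The size and the order of the values were read beside the calls. Most members moved with the amount of muscle RNA in a library, so they are not independent observations. They were also chosen with earlier results of these data known. The fitted log2 fold change was negative for 43 of 47 members with a median of -2.002, against a median of 0.045 for all genes, 32 members had an unadjusted p under 0.05 (43.7% of all genes did), and DESeq2 called 20, of which 19 were lower and 1, Tnni1, higher (35.1% of all genes it tested). In 29 members every wound sample was below every normal sample, which was so for 11.1% of all genes, and in 0 members was every wound sample above every normal sample, against 9.86% of all genes.

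The number of calls turned on single libraries. Without acellular 15 mm replicate 2 it was 34 (31.3% of all genes were called in either direction), without HDB 10 mm replicate 1 it was 32 (31.7%), and without HDB 10 mm replicate 2 it was 16 (27.6%). It was 11 without acellular 10 mm replicate 3, acellular 15 mm replicate 3 or HDB 15 mm replicate 2 (28.2% to 36.7%). It was 4 without acellular 10 mm replicate 1 or 2, HDB 10 mm replicate 3, or HDB 15 mm replicate 1 or 3 (25.1% to 27.5%), and 3 without normal replicate 1 or 2 (15.4% to 16.2%). It was lowest, at 2, without normal replicate 3 (11.9%). With both of the libraries poorest in muscle left out, a choice made after seeing the data, 27 members were called (34.7%). Of the 7 members called, Tcap and Myh1 kept the call whichever library was left out. Eno3 lost it in 9 of 15 cases, Actn2 and Mylk2 in 8 each, Myoz2 in 3 and Mybpc1 in 2. All the calls counted above were lower in wounds, except that Tnni1 was called higher without HDB 10 mm replicate 1, without HDB 10 mm replicate 2, without normal replicate 1 and without both muscle-poor libraries.

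**Figure D2:**
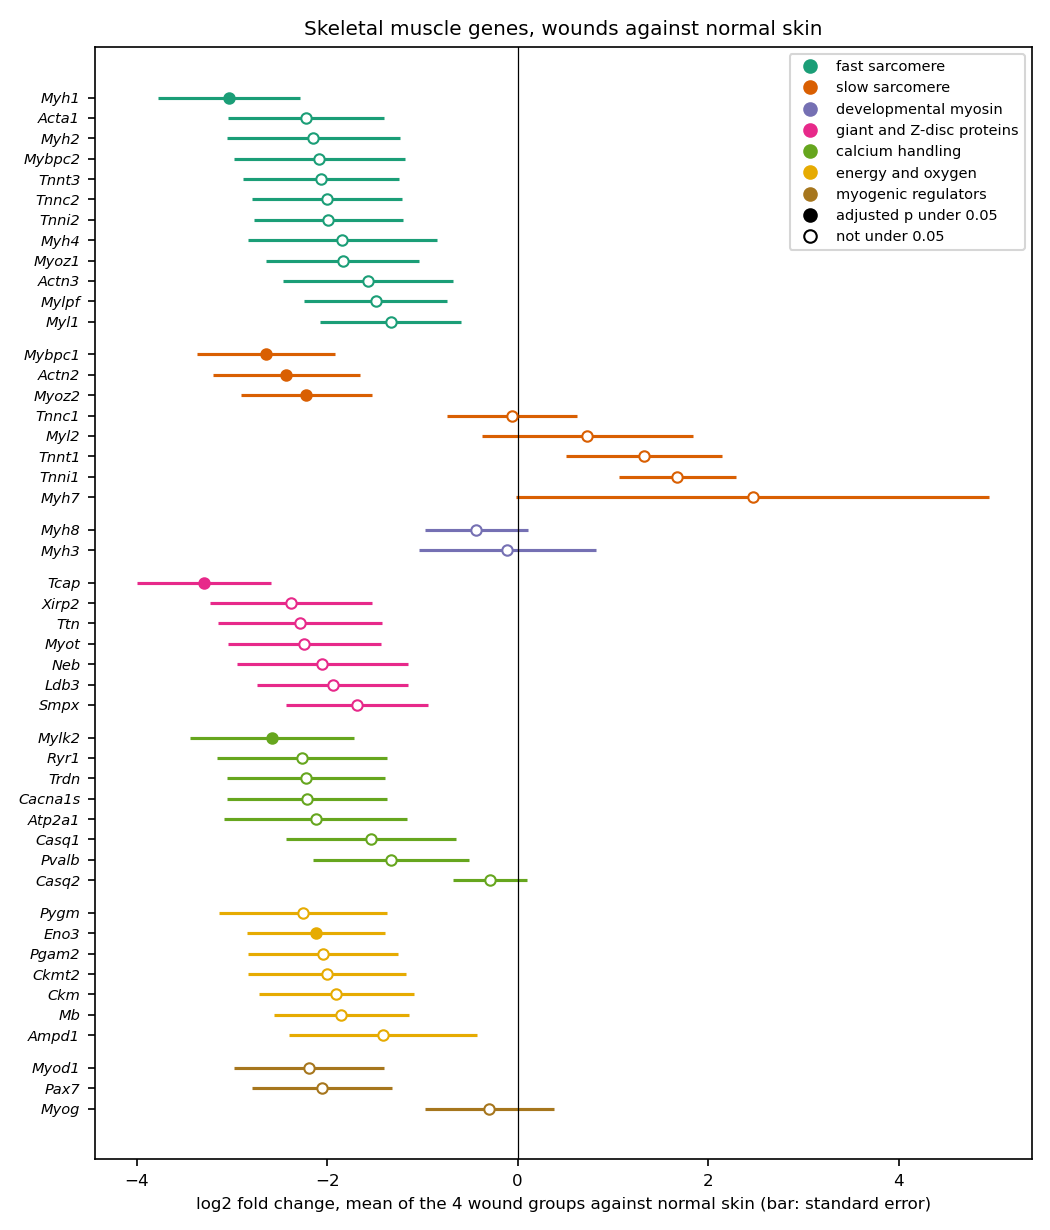
Log2 fold change of the mean of the 4 wound groups against normal skin for the 47 members tested, grouped by role, with the standard error from edgeR as bars and filled points for an adjusted p under 0.05. Of the points, 43 lie left of 0, and 4 slow-fibre genes, Myl2, Tnnt1, Tnni1 and Myh7, lie right of it with open symbols.

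Among the 12 genes grouped as fast sarcomere genes, with Acta1 counted in, Myh1, the fast IIx myosin heavy chain, was the only one called. It measured 482, 826 and 2239 CPM in acellular 10 mm, 258, 1315 and 79.0 in acellular 15 mm, 2819, 108 and 539 in HDB 10 mm, 562, 1559.8 and 579.5 in HDB 15 mm, and 9695, 4574 and 7954 in normal skin. No wound reached the lowest normal value, and the log2 fold change was -3.03 ± 0.74 (SE), adjusted p = 0.0113. Myh4, the fast IIb myosin heavy chain, measured 678, 1749.6 and 4669 CPM in acellular 10 mm, 613, 4073 and 106 in acellular 15 mm, 7262, 24.0 and 1443 in HDB 10 mm, 2176, 4293 and 1026 in HDB 15 mm, and 6895, 9888 and 7822 in normal skin. Here HDB 10 mm replicate 1 lay within the range of normal skin and the other 11 wounds lay below it. Its log2 fold change was -1.84 ± 0.99 (SE), adjusted p = 0.171.

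The fast troponins set the calcium response of the thin filament. Tnnt3, fast troponin T, measured 549, 1544 and 3173 CPM in acellular 10 mm, 307, 2020.2 and 61.9 in acellular 15 mm, 3905, 99.7 and 971 in HDB 10 mm, 1578, 3021 and 1235 in HDB 15 mm, and 6984, 4935 and 6339.8 in normal skin, with a log2 fold change of -2.06 ± 0.82 (SE), adjusted p = 0.0730. Tnni2, the inhibitory subunit, gave 305, 830.1 and 1484 CPM in acellular 10 mm, 158, 951 and 32.5 in acellular 15 mm, 1817, 59.1 and 491 in HDB 10 mm, 889, 1712 and 712 in HDB 15 mm, and 3373, 2299 and 3043 in normal skin. Tnnc2, the calcium-binding subunit, ran close beside it with 304, 873 and 1507 CPM in acellular 10 mm, 159, 1007 and 35.6 in acellular 15 mm, 1976, 62.7 and 511 in HDB 10 mm, 881, 1699.6 and 729 in HDB 15 mm, and 3516, 2518 and 3116 in normal skin. In all 3 genes each wound was below each normal sample, and the fitted changes did not pass the test. Actn3, the Z-disc actinin of fast fibres, measured 118, 336 and 706 CPM in acellular 10 mm, 66.4, 550 and 18.2 in acellular 15 mm, 945, 13.9 and 238 in HDB 10 mm, 351, 759 and 167 in HDB 15 mm, and 961, 1199 and 903 in normal skin, and HDB 10 mm replicate 1 overlapped normal skin. Mybpc2, the fast form of myosin-binding protein C, gave 129.9, 354 and 750.3 CPM in acellular 10 mm, 85.0, 629 and 19.7 in acellular 15 mm, 1076, 9.58 and 261 in HDB 10 mm, 392, 797 and 185 in HDB 15 mm, and 1679, 1599.7 and 1532 in normal skin, without overlap. The light chains Myl1 and Mylpf overlapped normal skin as well, Myl1 in 2 wounds and Mylpf in 1. Myl1 ran from 68.8 to 2634 CPM in the wounds and 2296 to 2887 CPM in normal skin, and Mylpf from 60.5 to 2812 CPM in the wounds and 2622 to 3110 CPM in normal skin. The other fast genes, Myh2 (IIa myosin) and Myoz1 (calsarcin 2, a Z-disc protein), did not overlap. Myh2 spanned 9.40 to 728 CPM in the wounds and 771 to 1035 CPM in normal skin.

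Per kilobase of transcript, Acta1 stood highest in normal skin, with a mean of 10124 CPM per kilobase. Tnnt3 had 5641, Tnnc2 4357, the myosin light chain Mylpf 3756 and Tnni2 3246, while the slow Tnnt1 had 4.43 and the slow Tnni1 0.300.

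The 9 genes grouped as slow sarcomere genes split. Mybpc1, Actn2 and Myoz2 were called lower, and the remainder were near or below 40 CPM in every sample. The grouping was made by name, and the split rests in part on it. Actn2 is not particular to slow fibres. Mybpc1 spanned 1340 to 2011 CPM in normal skin, level with the 1532 to 1679 CPM of the fast Mybpc2. Mybpc1, the slow form of myosin-binding protein C, measured 125, 245 and 665 CPM in acellular 10 mm, 82.0, 405 and 30.9 in acellular 15 mm, 839, 32.3 and 169.8 in HDB 10 mm, 204, 447 and 159 in HDB 15 mm, and 2011, 1340.3 and 1766 in normal skin, a log2 fold change of -2.64 ± 0.72 (SE), adjusted p = 0.0175. Actn2, the Z-disc actinin found in all fibre types, gave 54.1, 114 and 261 CPM in acellular 10 mm, 30.6, 173 and 7.59 in acellular 15 mm, 384, 11.8 and 72.4 in HDB 10 mm, 99.3, 241 and 87.5 in HDB 15 mm, and 795, 543 and 634 in normal skin, a change of -2.43 ± 0.77 (SE), adjusted p = 0.0326. Every wound was below every normal sample in both. Myoz2, calsarcin 1 of the Z-disc, spanned 0.956 to 38.1 CPM in the wounds and 50.7 to 89.5 CPM in normal skin, with a change of -2.22 ± 0.69 (SE), adjusted p = 0.0299.

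The slow troponins and slow myosin did not follow. Tnnt1, slow troponin T, measured 8.73, 11.5 and 27.4 CPM in acellular 10 mm, 1.93, 11.7 and 3.29 in acellular 15 mm, 39.9, 2.31 and 4.05 in HDB 10 mm, 6.51, 20.7 and 14.6 in HDB 15 mm, and 5.90, 4.49 and 3.69 in normal skin. In 8 of the 12 wounds it was above the highest normal sample and in 3 below the lowest, and the log2 fold change of 1.33 ± 0.82 (SE), adjusted p = 0.231 did not pass the test and was 0.76 without HDB 10 mm replicate 1. Tnni1, slow troponin I, gave 1.77, 2.92 and 1.52 CPM in acellular 10 mm, 3.12, 1.69 and 1.59 in acellular 15 mm, 5.03, 0.861 and 1.33 in HDB 10 mm, 1.26, 2.36 and 1.58 in HDB 15 mm, and 1.26, 0.402 and 0.268 in normal skin, which rests on 4 to 85 counts a sample. It was above the highest normal sample in 10 of 12 wounds and below the lowest in 0, with 1.68 ± 0.61 (SE), adjusted p = 0.0537 for the log2 fold change. DESeq2 called it higher in wounds, at 1.67 and adjusted p = 0.0167. In the main method its change was 1.31 without normal replicate 3 and 2.60 without normal replicate 1. Tnni1 ranged 5.84-fold over the wounds where its fast partner Tnni2 ranged 55.9-fold.

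Tnnc1, troponin C of slow muscle and heart, was scarce, with 0.343, 1.18 and 0.818 CPM in acellular 10 mm, 0.113, 0.233 and 0 in acellular 15 mm, 2.90, 0.161 and 0.4998 in HDB 10 mm, 0.0571, 0.364 and 0.113 in HDB 15 mm, and 0.632, 0.335 and 0.201 in normal skin. Myh7, the slow myosin heavy chain, measured 0.114, 0.955 and 1.52 CPM in acellular 10 mm, 0, 0.292 and 0 in acellular 15 mm, 9.29, 0.0538 and 0 in HDB 10 mm, 0, 0 and 0.0565 in HDB 15 mm, and 0.141, 0 and 0 in normal skin. A single wound, HDB 10 mm replicate 1, carried most of the Myh7 in the series. Myl2 and Myl3, light chains of slow fibres, reached at most 5.15 and 0.769 CPM. Among the members, the deposited counts of Myh1, Myh2, Myh4, Myh7, Myh8, Mylpf, Eno3 and Mybpc2 held fractions, as arise where a read is divided between genes, so the low values of Myh7 and Myh8 beside the abundant fast myosins are uncertain. Those of the slow troponins, Myl2 and Myl3 were whole in all samples.

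The share of the slow form within each fast and slow pair is taken within the counts of one library, and it was followed sample by sample. Tnni1 made up 0.577, 0.351 and 0.102% in acellular 10 mm, 1.93, 0.178 and 4.67% in acellular 15 mm, 0.276, 1.44 and 0.271% in HDB 10 mm, 0.141, 0.138 and 0.222% in HDB 15 mm, and 0.0375, 0.0175 and 0.00882% in normal skin of the counts of Tnni1 and Tnni2. Every wound lay above every normal sample, and the highest shares were in acellular 15 mm replicates 1 and 3 and HDB 10 mm replicate 2, which held the least muscle RNA of all. For Tnnt1 among Tnnt1 and Tnnt3 the shares were 1.56, 0.740 and 0.857% in acellular 10 mm, 0.624, 0.574 and 5.05% in acellular 15 mm, 1.01, 2.27 and 0.416% in HDB 10 mm, 0.411, 0.682 and 1.17% in HDB 15 mm, and 0.0844, 0.0908 and 0.0582% in normal skin. Again all 12 wounds were above normal skin. The part of the low muscle content of these libraries in the shares was not tested.

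**Figure D3:**
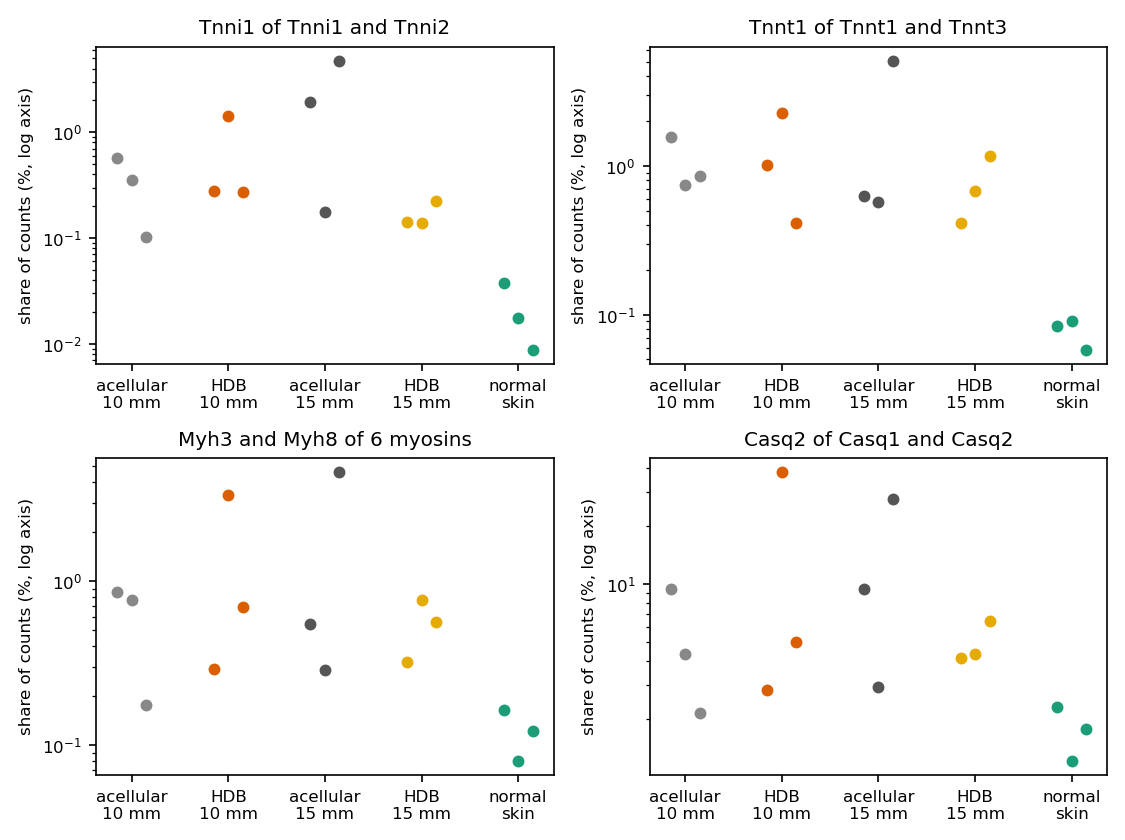
Share of counts (%, log axis) of the slow or developmental form within 4 sets of paralogs, with 1 point for each sample in replicate order from left to right. In the panels for Tnni1, Tnnt1 and the developmental myosins all 12 wounds lie above the 3 normal samples, and for Casq2 11 of 12 do. The highest point of each panel is a wound poor in muscle RNA, acellular 15 mm replicate 3 or HDB 10 mm replicate 2.

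Between wounds and normal skin the mean share differed by 0.837 percentage points for Tnni1 and 1.203 for Tnnt1, and the exact two-sided permutation test over samples gave adjusted p = 0.539 for both, over 16 tests. On the log2 scale, an alternative added after seeing the data for the shares above 0 in every sample, the Tnni1 share was 22.1-fold and the Tnnt1 share 12.5-fold higher in wounds (exact permutation p = 0.0022 for each, the smallest that 455 arrangements can give, adjusted p = 0.0132 over 12 tests). Without acellular 15 mm replicate 3 the mean difference of the Tnni1 share dropped to 0.490 points. Between HDB and acellular wounds within a size the Tnni1 share differed by -0.888 points (exact permutation adjusted p = 0.617) and the Tnnt1 share by -0.575 points (exact permutation adjusted p = 0.880).

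For Tnnc1 among both troponins C, the share was highest at 0.257% in HDB 10 mm replicate 2 and 0 in acellular 15 mm replicate 3, against 0.00646% to 0.0180% in normal skin. Actn2, which is found in all fibre types, differed in the other direction within its pair. Its share among both actinins ran from 22.1% to 45.8% in wounds and from 31.2% to 45.3% in normal skin. The difference was -10.3 points (exact permutation adjusted p = 0.539). Mybpc1 made up 34.3% to 77.1% of the counts of Mybpc1 and Mybpc2 in wounds and 45.6% to 54.5% in normal skin, differing by -4.29 points (exact permutation adjusted p = 0.880; -7.10 without normal replicate 2 and -2.65 without normal replicate 1). Neither of the latter shares separated wounds from normal skin.

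Myosin heavy chains sort the fibres most directly. Of the counts of the 6 myosins followed, Myh4 took 55.0, 63.4 and 62.4% in acellular 10 mm, 67.9, 70.7 and 52.0% in acellular 15 mm, 66.9, 14.8 and 69.8% in HDB 10 mm, 76.1, 68.5 and 58.0% in HDB 15 mm, and 39.1, 64.9 and 46.6% in normal skin. Myh1 took 39.1, 29.9 and 29.9% in acellular 10 mm, 28.5, 22.8 and 38.8% in acellular 15 mm, 26.0, 66.4 and 26.1% in HDB 10 mm, 19.6, 24.9 and 32.7% in HDB 15 mm, and 54.9, 30.0 and 47.4% in normal skin. In 11 of 12 wounds Myh4 was the leading myosin, as it was in normal replicate 2, whereas Myh1 led in normal replicates 1 and 3 (by a margin of under 1 point in the latter) and in HDB 10 mm replicate 2. That wound also had the highest share of Myh2, 15.4%, against 3.03% to 8.70% in the other wounds and 5.06% to 5.92% in normal skin. Its 6 myosins rest on 3015 counts, fewer than in any other sample, against 227681 to 251277 counts in normal skin.

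**Figure D4:**
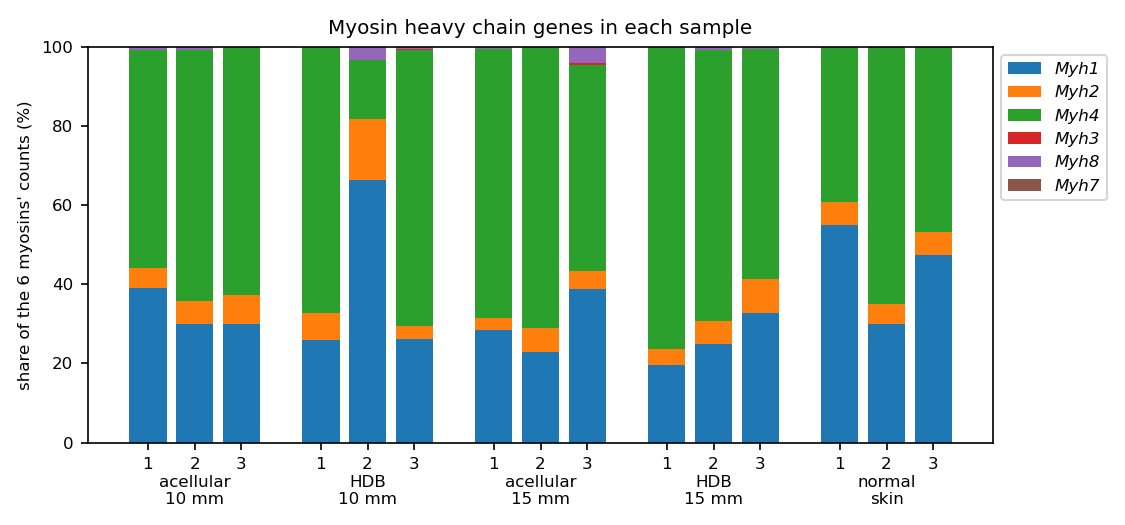
Share (%) of each of 6 myosin heavy chain genes in their summed counts, with 1 bar for each sample. Myh4 and Myh1 fill most of every bar. HDB 10 mm replicate 2 stands out with 66.4% Myh1 and 14.8% Myh4, and the developmental Myh8 reaches 4.07% in acellular 15 mm replicate 3.

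The developmental myosins were low everywhere. Myh8, the perinatal myosin, measured 9.30, 18.6 and 11.2 CPM in acellular 10 mm, 4.93, 15.1 and 8.28 in acellular 15 mm, 25.5, 5.22 and 12.4 in HDB 10 mm, 7.71, 44.4 and 8.64 in HDB 15 mm, and 24.0, 11.9 and 19.9 in normal skin, and HDB 10 mm replicate 1 and HDB 15 mm replicate 2 exceeded the highest normal sample. Myh3, the embryonic myosin, measured 1.31, 2.58 and 2.05 CPM in acellular 10 mm, 0, 1.52 and 1.06 in acellular 15 mm, 6.10, 0.215 and 1.83 in HDB 10 mm, 1.43, 3.88 and 1.30 in HDB 15 mm, and 4.78, 0.335 and 0.671 in normal skin. Wounds and normal skin overlapped in both genes. As a share of the 6 myosins, however, Myh3 and Myh8 together made up 0.861, 0.769 and 0.177% in acellular 10 mm, 0.546, 0.289 and 4.59% in acellular 15 mm, 0.291, 3.35 and 0.691% in HDB 10 mm, 0.320, 0.770 and 0.562% in HDB 15 mm, and 0.163, 0.0804 and 0.122% in normal skin. All wounds lay above normal skin by this measure, although by little in acellular 10 mm replicate 3. The mean difference of 0.980 points gave an exact permutation adjusted p = 0.539, and on the log2 scale the ratio of 5.71 gave an exact permutation adjusted p = 0.0615. HDB and acellular wounds differed by -0.209 points (exact permutation adjusted p = 0.880).

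Of the 7 giant and Z-disc genes, Tcap was called. Tcap encodes telethonin, which caps titin at the Z-disc, and it spanned 5.68 to 301 CPM in the wounds and 871 to 1426 CPM in normal skin. Its log2 fold change of -3.29 ± 0.70 (SE), adjusted p = 0.00618 was the most negative of all members. Ttn, titin, the molecular spring of the sarcomere, measured 164, 347 and 991 CPM in acellular 10 mm, 96.7, 961 and 41.4 in acellular 15 mm, 1551, 28.3 and 279.6 in HDB 10 mm, 225, 592 and 178 in HDB 15 mm, and 2375, 1537 and 2509 in normal skin, with -2.28 ± 0.86 (SE), adjusted p = 0.0616 for its change. Neb, nebulin, which runs along the thin filament, gave 122, 292 and 871 CPM in acellular 10 mm, 108, 884 and 36.3 in acellular 15 mm, 1554, 21.4 and 275 in HDB 10 mm, 228, 657 and 142 in HDB 15 mm, and 1869.9, 1425 and 1918 in normal skin. HDB 10 mm replicate 1 reached the range of normal skin in both giant genes and the other 11 wounds did not. Myot, Ldb3, Xirp2 and Smpx, all structural genes of the Z-disc or its surroundings, had no overlap between wounds and normal skin and did not pass the test.

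Among the 8 calcium handling genes, Mylk2, the kinase of the skeletal myosin light chain, was called at -2.58 ± 0.86 (SE), adjusted p = 0.0390, and it spanned 3.66 to 327 CPM in the wounds and 533 to 794 CPM in normal skin. Atp2a1, the calcium pump SERCA1 of fast fibres, was the most abundant of this role and measured 711, 1934 and 4627 CPM in acellular 10 mm, 545, 3698 and 119 in acellular 15 mm, 6669, 24.5 and 1488 in HDB 10 mm, 1997, 4177 and 922 in HDB 15 mm, and 10444, 8473 and 9565 in normal skin. Pvalb, parvalbumin, a calcium buffer of fast fibres, measured 328, 999.9 and 1900.2 CPM in acellular 10 mm, 143, 1176 and 48.9 in acellular 15 mm, 2261, 68.9 and 745 in HDB 10 mm, 1175, 2194 and 862 in HDB 15 mm, and 2386, 2480.5 and 2054 in normal skin. While no wound reached normal skin for Atp2a1, HDB 10 mm replicate 1 and HDB 15 mm replicate 2 did so for Pvalb, whose change was -1.33 ± 0.82 (SE), adjusted p = 0.227. Ryr1, the calcium release channel, Cacna1s, its voltage sensor, and Trdn, triadin, which anchors calsequestrin to that channel, were each below normal skin in all 12 wounds without passing the test.

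The calsequestrins, which store calcium in the sarcoplasmic reticulum, parted from each other. Casq1 measured 93.0, 292 and 796 CPM in acellular 10 mm, 63.3, 495 and 24.4 in acellular 15 mm, 1055, 13.0 and 259 in HDB 10 mm, 404, 815 and 224 in HDB 15 mm, and 1133, 1078 and 905 in normal skin. Casq2 measured 9.76, 13.3 and 17.4 CPM in acellular 10 mm, 6.58, 15.1 and 9.35 in acellular 15 mm, 30.7, 7.96 and 13.7 in HDB 10 mm, 17.5, 37.2 and 15.5 in HDB 15 mm, and 26.9, 13.3 and 16.4 in normal skin. Casq1 thus spread 81.4-fold over the wounds and Casq2 5.65-fold, and Casq2 overlapped normal skin. The share of Casq2 in both was 9.50, 4.36 and 2.14% in acellular 10 mm, 9.42, 2.95 and 27.7% in acellular 15 mm, 2.82, 38.0 and 5.02% in HDB 10 mm, 4.14, 4.36 and 6.50% in HDB 15 mm, and 2.32, 1.22 and 1.78% in normal skin. It exceeded the highest normal share in 11 of 12 wounds and was at its highest, 27.7% and 38.0%, in the wounds poorest in muscle RNA, with a mean difference of 7.98 points (exact permutation adjusted p = 0.539).

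Ckm, the muscle creatine kinase that buffers ATP, led the 7 genes of energy and oxygen, with 737, 2110.4 and 3279.7 CPM in acellular 10 mm, 359, 2366 and 72.9 in acellular 15 mm, 4003, 97.7 and 1158 in HDB 10 mm, 1920.2, 3708 and 1215 in HDB 15 mm, and 6796, 5841 and 5999 in normal skin and a change of -1.90 ± 0.82 (SE), adjusted p = 0.0928. Eno3, the muscle enolase of glycolysis, was the member of this role that was called. It measured 223, 587 and 1073 CPM in acellular 10 mm, 155, 771 and 51.6 in acellular 15 mm, 1363, 49.0 and 409 in HDB 10 mm, 603, 1220.4 and 378 in HDB 15 mm, and 2805, 2091 and 2261 in normal skin, a change of -2.12 ± 0.73 (SE), adjusted p = 0.0433. Wounds and normal skin did not overlap in either. Mb (myoglobin), Ckmt2 (mitochondrial creatine kinase), Pygm (muscle glycogen phosphorylase) and Pgam2 (muscle phosphoglycerate mutase) did not overlap either and were not called. Ampd1, the muscle AMP deaminase, overlapped in HDB 10 mm replicate 1 and HDB 15 mm replicate 2.

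The 3 regulators differed from each other. Pax7 measured 0.400, 0.730 and 1.40 CPM in acellular 10 mm, 0.397, 1.81 and 0.106 in acellular 15 mm, 2.66, 0.0538 and 0.889 in HDB 10 mm, 0.628, 3.21 and 0.508 in HDB 15 mm, and 6.11, 3.55 and 3.22 in normal skin. Myod1 measured 2.06, 5.84 and 12.5 CPM in acellular 10 mm, 1.19, 6.36 and 0.743 in acellular 15 mm, 19.1, 0.215 and 4.50 in HDB 10 mm, 4.34, 15.3 and 2.202 in HDB 15 mm, and 30.6, 22.6 and 25.1 in normal skin. In both, every wound was below every normal sample, Pax7 by the narrow margin of HDB 15 mm replicate 2. The changes were -2.06 ± 0.74 (SE), adjusted p = 0.0512 for Pax7 and -2.19 ± 0.79 (SE), adjusted p = 0.0517 for Myod1, just outside the threshold. DESeq2 called both lower, with adjusted p = 0.0404 for Pax7 and 0.0291 for Myod1. Myog, myogenin, which marks differentiating myoblasts, measured 3.25, 9.83 and 9.65 CPM in acellular 10 mm, 0.794, 3.33 and 2.92 in acellular 15 mm, 14.3, 1.51 and 4.39 in HDB 10 mm, 4.40, 23.4 and 2.94 in HDB 15 mm, and 8.99, 5.22 and 7.58 in normal skin. It was above the highest normal sample in 4 wounds and below the lowest in 8, and its change was -0.30 ± 0.67 (SE), adjusted p = 0.758.

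**Figure D5:**
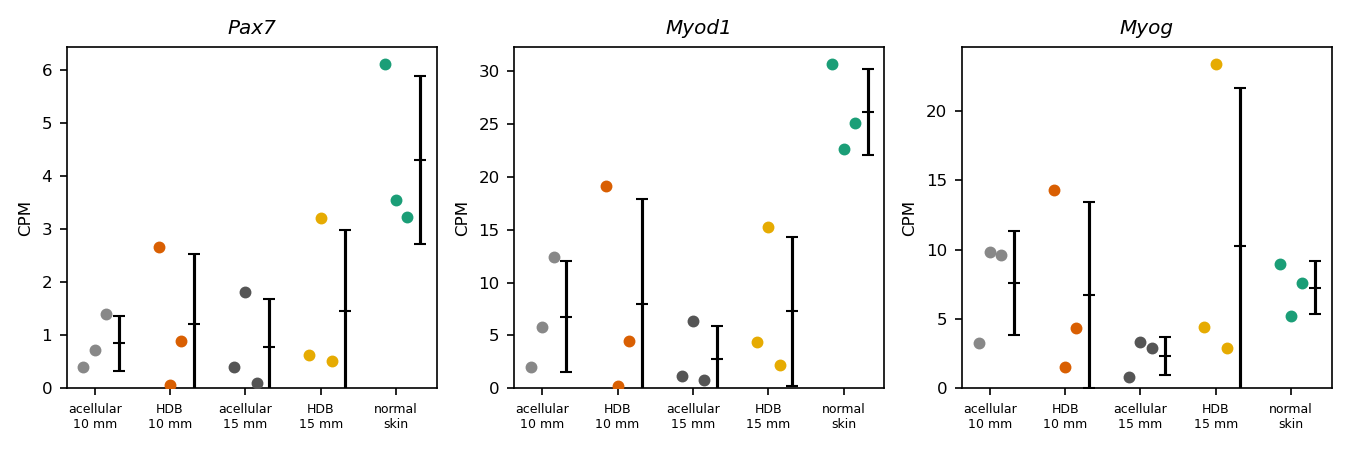
Pax7, Myod1 and Myog in CPM, with 1 point for each sample and the mean ± SD (n = 3) beside each group, bars being clipped at 0. All 12 wounds lie below normal skin for Pax7 and Myod1, while for Myog wounds lie on both sides of it and the highest value, 23.4 CPM, is HDB 15 mm replicate 2.

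The parts that the roles took of the muscle counts varied less between wounds than the sum did in the library. They varied least for the fast sarcomere genes and the genes of energy and oxygen. Per 1000 counts of the 48 genes, Acta1 took 109 to 157 in the wounds and 159 to 161 in normal skin. The 12 fast sarcomere genes, Acta1 included, together took 514 to 623 in the wounds and 563 to 580.3 in normal skin. The calcium handling genes took 92.4 to 193 and 166 to 173, and the genes of energy and oxygen 136 to 179 and 139 to 155. The giant and Z-disc genes took 50.2 to 97.2 in the wounds and 74.1 to 93.1 in normal skin, and the slow sarcomere genes 14.7 to 36.0 and 23.8 to 28.6. The developmental myosins spread widely, from 0.286 to 7.54 in the wounds against 0.150 to 0.284 in normal skin, as did the regulators, from 0.348 to 3.04 against 0.386 to 0.452. Some members took a larger part in every wound than in any normal sample. Myl1 took 36.5 to 111 in the wounds and 25.2 to 35.4 in normal skin. Mylpf took 36.9 to 84.1 in the wounds and 28.8 to 35.6 in normal skin. Myog took 0.101 to 2.36 in the wounds and 0.0641 to 0.0889 in normal skin. Smaller parts in every wound were seen for Mylk2, with 2.51 to 5.88 in the wounds and 6.54 to 7.85 in normal skin, and for Acta1. Tcap took 4.11 to 12.5 in the wounds and 10.7 to 14.1 in normal skin, with acellular 10 mm replicate 1 alone overlapping normal skin.

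HDB 10 mm replicate 2 stood apart in this mix. Its Atp2a1 took 16.9 and its Myh4 16.5 of 1000, each the lowest of all samples, while its Mb took 43.6 and its Myl1 111, each the highest. This library had 0.150% of its counts on the 48 genes.

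Whether beads with cells changed the muscle genes was asked by comparing HDB with acellular wounds of the same size. At 10 mm 0 of 47 members were called, as were 0% of all genes, at an unadjusted p under 0.05 there were 0 members (3.53% of all genes), and DESeq2 called 0 (0.0991%). Acta1 had a log2 fold change of -0.07 ± 1.17 (SE), adjusted p = 1.00. The mean of log2 summed CPM over the members was 0.899 lower in HDB (0.536-fold), while the median of the fitted changes was 0.0756, so these measures differed in sign. That median ran from -1.62 without HDB 10 mm replicate 1 to 0.71 without acellular 10 mm replicate 3. Without HDB 10 mm replicate 2 the difference in the sum was 0.556 and without HDB 10 mm replicate 1 it was -2.15. At this spread no difference between HDB and acellular wounds of 10 mm could be resolved in either direction.

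At 15 mm 0 of 47 members were called, against 2.35% of all genes lower in HDB and 0.579% higher. Of the members 42 had a positive fitted change, the median was 1.10, 2 had an unadjusted p under 0.05 (23.2% of all genes), and DESeq2 called 0 (12% of all genes). The median was 0.40 without HDB 15 mm replicate 2. It was 2.90 when acellular 15 mm replicate 2 was left out, and 0.70 or 0.56 when replicate 1 or 3 of that group was. The summed members were 4.16-fold higher in HDB by the mean of log2 values, yet the groups overlapped, since acellular 15 mm replicate 2 with 3.40% of counts lay above HDB 15 mm replicates 1 and 3. Taken by replicate number, the sum and Acta1 were higher in HDB in all 3 pairs. The labels give these numbers no meaning, and the pairs were taken from the same data. That order is therefore no support for a difference. With acellular 15 mm replicate 2 left out, the log2 difference in the sum rose from 2.06 to 3.30, and without acellular 15 mm replicate 3 it dropped to 0.928. Acta1 differed by 1.10 ± 1.19 (SE), adjusted p = 0.604, Mylpf by 1.75 ± 1.08 (SE), adjusted p = 0.345 and Myog by 2.12 ± 0.91 (SE), adjusted p = 0.187. Single libraries moved these values too. Acta1 ran from 0.56 without acellular 15 mm replicate 3 to 3.13 without acellular 15 mm replicate 2, Mylpf from 1.15 without HDB 15 mm replicate 2 to 3.58 without acellular 15 mm replicate 2, and Myog was 0.64 without HDB 15 mm replicate 2.

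Titin was 1 of 5 members with a negative fitted change at 15 mm, but its -0.14 ± 1.23 (SE), adjusted p = 0.956, resolved no direction. It was 2.26 without acellular 15 mm replicate 2 and -0.86 without HDB 15 mm replicate 2. Per 1000 counts of the members Ttn took 19.5, 15.9 and 21.5 in acellular 10 mm, 19.1, 29.1 and 33.4 in acellular 15 mm, 25.2, 19.4 and 19.1 in HDB 10 mm, 10.3, 13.0 and 11.9 in HDB 15 mm, and 23.5, 18.9 and 27.6 in normal skin. At 15 mm all 3 HDB wounds were below all 3 acellular wounds in this share. Neb took 14.5, 13.3 and 18.9 in acellular 10 mm, 21.3, 26.8 and 29.2 in acellular 15 mm, 25.2, 14.7 and 18.8 in HDB 10 mm, 10.4, 14.5 and 9.52 in HDB 15 mm, and 18.5, 17.5 and 21.1 in normal skin, with the same order at 15 mm. A full separation at 15 mm was not particular to Ttn and Neb. Ryr1 took 10.7 to 13.6 in acellular 15 mm and 5.41 to 7.84 in HDB 15 mm. Tnnt3 went the other way, with 49.9 to 61.2 and 66.5 to 82.5, and further members parted in either direction. Ttn and Neb have the longest transcripts of all members. When a trend with transcript length was removed from each library, the fitted change of Ttn at 15 mm turned from -0.14 to 0.78. It was 0.036 when the replicate number entered as a block.

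Over both sizes together 0 of 47 members differed between HDB and acellular wounds (0% of all genes), with 1 at an unadjusted p under 0.05 (15.8% of all genes), a median of 0.53 and 0 calls by DESeq2 (1.51% of all genes). Without HDB 10 mm replicate 1 the median turned to -0.29, with 38 members negative, and without acellular 15 mm replicate 2 it was 1.53. The interaction of beads and wound size called 0 members and 0% of all genes, with 0 members at an unadjusted p under 0.05 (13.4% of all genes) and 0 by DESeq2 (4.59%). Between 15 mm and 10 mm wounds 0 members were called (0% of all genes) in the acellular groups, where the median was -0.999, 1 member had an unadjusted p under 0.05 (17.5% of all genes) and DESeq2 called 0 (4.78%). That median was -0.26 when acellular 10 mm replicate 3 was left out, whereas leaving out acellular 15 mm replicate 2 gave -2.97. In the HDB groups the count was likewise 0 (0% of all genes), with a median of 0.06, 2 members at an unadjusted p under 0.05 (12.3% of all genes) and 0 called by DESeq2 (2.43%), and the median ran from -0.64 without HDB 15 mm replicate 2 to 1.74 without HDB 10 mm replicate 1.

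Each wound group was also set against the same 3 normal samples. The acellular 15 mm group had 4 members lower, Tcap, Myh1, Myoz2 and Mybpc1, against 12.6% of all genes, with a median change of -2.71 and 25 members at an unadjusted p under 0.05 (43.8% of all genes). DESeq2 called 22 lower and Tnni1 higher (34.4% of all genes). A fit of acellular 15 mm and normal skin alone called 0 members (6.57% of all genes). With the replicate number as a block, 1 was called (25.3% of all genes). The count of 4 was 36 without acellular 15 mm replicate 2, 13 without HDB 10 mm replicate 2, 9 without HDB 10 mm replicate 1, 2 without acellular 10 mm replicate 2, HDB 15 mm replicate 3 or normal replicate 1, 1 without acellular 15 mm replicate 3 or normal replicate 2 or 3, and 0 without acellular 15 mm replicate 1. These counts are of members lower, except that 1 of the 9 and 1 of the 2 without normal replicate 1 was Tnni1, called higher. In the acellular 10 mm group 0 were called against 10.6% of all genes, the median was -1.79, 3 members had an unadjusted p under 0.05 (38.3% of all genes) and DESeq2 called 2 (28.7%), both lower. A fit of these 2 groups alone called 28 lower and Tnnt1 higher (42% of all genes in that fit). For HDB 10 mm it was 0 against 6.23%, with a median of -1.79, 4 at an unadjusted p under 0.05 (31.6% of all genes) and, by DESeq2, 1 lower and Tnni1 higher (20.3%). For HDB 15 mm it was 0 against 2.51%, with a median of -1.57, 3 at an unadjusted p under 0.05 (26.9% of all genes) and 2 lower by DESeq2 (14.5%). A fit of these 2 groups alone called 25 lower and Tnnt1 higher (22.9% of all genes in that fit). The median of HDB 10 mm was -3.39 without HDB 10 mm replicate 1, and that of acellular 15 mm was -4.84 without acellular 15 mm replicate 2. These comparisons share their controls, and whether the groups differ in their distance from normal skin is the test between wounds given above. The count for HDB 10 mm rose to 4 without HDB 10 mm replicate 1 (17.5% of all genes). It was 1 without acellular 15 mm replicate 3 (16.1%). The count for acellular 10 mm rose to 1 without HDB 10 mm replicate 2 (20.3%) or acellular 15 mm replicate 3 (26%).

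A further list of 43 skeletal muscle genes outside the 48 was read beside them. Of the 43, 25 were lower in wounds and 0 higher, against 16.7% and 14.2% of all genes, with a median of -2.05. The highest of them on average was Tpm2, beta-tropomyosin of the thin filament, with 557, 1113 and 1964 CPM in acellular 10 mm, 308, 1364 and 173 in acellular 15 mm, 2516, 184 and 659.8 in HDB 10 mm, 1038, 1809 and 934 in HDB 15 mm, and 4809.9, 3447 and 4663 in normal skin and a change of -2.09 ± 0.60 (SE), adjusted p = 0.0221. Des, desmin, the intermediate filament of muscle, measured 301, 626 and 917 CPM in acellular 10 mm, 112, 744 and 106 in acellular 15 mm, 1086, 93.0 and 348 in HDB 10 mm, 469, 1013 and 482 in HDB 15 mm, and 2679, 1779 and 2683 in normal skin, a change of -2.23 ± 0.59 (SE), adjusted p = 0.0158. Only Tpm3 (slow tropomyosin, also made outside muscle) and Sln (sarcolipin, an inhibitor of the calcium pump), both named after their values were seen, had positive changes, at 0.23 ± 0.10 (SE), adjusted p = 0.0981 for the former and 0.95 ± 0.73 (SE), adjusted p = 0.340 for the latter.

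Of 14 genes of satellite cells, fusion and the neuromuscular junction, 12 were tested, 5 were lower in wounds and 0 higher, against 16.7% and 14.2% of all genes. They were Chrna1, Chrnd and Chrne, subunits of the acetylcholine receptor, Rapsn, which clusters that receptor, and Cdh15, a cadherin of satellite cells. Chrne, the adult subunit, measured 0.228, 1.18 and 0.877 CPM in acellular 10 mm, 0.170, 1.46 and 0 in acellular 15 mm, 1.83, 0 and 0.222 in HDB 10 mm, 1.09, 1.88 and 0.508 in HDB 15 mm, and 5.34, 3.75 and 4.49 in normal skin, a change of -2.58 ± 0.80 (SE), adjusted p = 0.0299. Its fetal counterpart Chrng stayed at or below 0.970 CPM and was not tested. Mymk, the fusion protein myomaker, measured at most 2.30 CPM and had a fitted change of 0.02 ± 1.05 (SE), adjusted p = 0.992.

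Other cell types of the skin were read in the same libraries. Heart genes, which share slow forms with skeletal muscle, summed to 5.16 to 11.9 CPM over 8 genes in every sample, with the atrial light chain Myl7 at or below 0.0555 CPM and Myh6, the heart myosin, at or below 1.30 CPM. Of the 4 heart genes tested, Nppb (2.91 ± 0.73 (SE), adjusted p = 0.0124) and Tnni3 (1.02 ± 0.36 (SE), adjusted p = 0.0469) were higher in wounds and Ryr2 (-1.08 ± 0.31 (SE), adjusted p = 0.0215) lower, none above 4.18 CPM in any sample, and Tnnt2 measured 2.01 to 4.80 CPM. Smooth muscle genes (8) summed to 461 to 972 CPM in wounds and 797 to 1179 CPM in normal skin, with Synpo2 and Lmod1 lower. White fat genes (6) summed to 322 to 3921 CPM in wounds and 2004 to 4848 CPM in normal skin, and 5 of 6 were lower. Fat lies beside the muscle sheet in the deep skin, and wounds and normal skin overlapped in its sum. In both HDB groups the samples stood in the same order by fat sum and by muscle sum. In acellular 15 mm the sample with the least muscle had the highest fat sum, 2943 CPM, and in acellular 10 mm the sample with the most muscle had the lowest, 322 CPM. Epidermal keratins (4) summed to 5232 to 15640 CPM in wounds and 6108 to 7108 CPM in normal skin, with Krt5 and Krt14 higher and Krt10 lower. Fibroblast genes (6) summed to 3416 to 18316 CPM in wounds and 7240.3 to 23973 CPM in normal skin, with Dcn lower. Of the brown fat genes (5), which summed to 326 to 1246 CPM in wounds and 362 to 544 CPM in normal skin, the defining Ucp1 was at or below 0.364 CPM, Elovl3 (1.26 ± 0.26 (SE), adjusted p = 0.00521) was higher in wounds, and Ppargc1a (-2.09 ± 0.48 (SE), adjusted p = 0.00850) and Cox8b, which is also among the 43 muscle genes, were lower. The part of these layers in the muscle results was not tested.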

How the data were processed

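Expression was measured by RNA sequencing of oligo(dT)-selected mRNA from 15 skin samples. The authors deposited 1 table of expected counts for 18929 genes, not normalized. The submitters' processing notes name HISAT2 2.0.4, Bowtie2 2.2.5, RSEM 1.2.12 and GRCm38.p6, without their roles, and no strand setting is stated. Estimated counts were rounded and fitted in R 4.3.3 with edgeR 4.0.16 (TMM factors, filterByExpr, 15369 genes kept, 1 fit of 5 group means, quasi-likelihood test, Benjamini-Hochberg adjustment, threshold 0.05). CPM values use TMM library sizes. Standard errors are the fold change divided by the root of F. Slow shares were compared by exact two-sided permutation of samples, within wound size for HDB against acellular, adjusted over 16 tests. The 48 members and all lists were chosen with earlier results of these data known. Genes with values in every sample were the 2 most abundant of each role, the fast and slow pairs, the developmental myosins and the regulators, and Myh1, Tpm2, Des, Chrne, Mstn and Actc1 were added. The code was tested on simulated data. No 2 libraries were identical. Same-numbered samples deviated together only between acellular 15 mm and HDB 15 mm (correlations 0.397, 0.167 and 0.183), where the numbers were taken as pairs on the data alone. Alternatives were DESeq2 1.42.0, total counts without TMM, no filter, a mean count of at least 50, only the groups compared, a replicate block, a fold threshold, a length trend removed (lengths for 98.2% of genes) and each library left out.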

Additional observations from a re-analysis of the deposited data

How the results depend on the processing

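The count of members called moved widely with the processing. Against normal skin, DESeq2 called 20 members for all wounds (35.1% of all genes) and 23 for acellular 15 mm (34.4%). It called 2 for each of the other 3 groups (14.5% to 28.7%). Fitting only the groups compared called 29 members for acellular 10 mm (42% of all genes), 26 for HDB 15 mm (22.9%) and 0 for acellular 15 mm (6.57%). Total counts without TMM factors called 1 for HDB 10 mm (21.3% of all genes), Tnni1, which was higher. They moved the median of all genes for all wounds from 0.045 to 0.22 and the calls over all genes from 2564 lower and 2182 higher to 1699 lower and 4529 higher, while 7 members were called lower and 1 higher. With a replicate block, alone or with the length trend removed, acellular 15 mm had 1 call (25.3% and 23.1% of all genes). The block moved no other count by over 1.5 times. Leaving out both libraries poorest in muscle, chosen after seeing the data, gave 27 calls for all wounds (34.7% of all genes). That choice gave 2 for acellular 10 mm (27%) and 1 for HDB 15 mm (9.31%). Leaving out each library in turn gave 2 to 34 calls for all wounds and 0 to 1 for acellular 10 mm. It gave 0 to 36 for acellular 15 mm and 0 to 4 for HDB 10 mm. In the same order, 11.9% to 40.1%, 5.14% to 36%, 14.8% to 37.3% and 0.501% to 26.1% of all genes were called. No setting run called a member between HDB and acellular wounds, between sizes or in the interaction. The cause was not tested. Adjusted p over the alternatives ran from 0.000601 to 0.0297 for Tcap and from 0.00220 to 0.0476 for Myh1, so these 2 calls of all wounds against normal skin were kept in every setting run for that comparison, while Mybpc1, Actn2, Myoz2, Mylk2 and Eno3 lost the call in 2, 8, 3, 8 and 9 of the 15 fits without 1 library, with adjusted p of at most 0.124. With the replicate block, whose numbers do not pair wounds with normal skin, Mylk2 changed by -2.69 (adjusted p = 0.0546), Eno3 by -2.19 (adjusted p = 0.0585) and Tnni1 by 1.81 (adjusted p = 0.0349, now called higher). Tnni1 was also called higher with DESeq2, with total counts (1.85, adjusted p = 0.0283) and without both muscle-poor libraries. Acta1, Tnnt3, Ckm, Ttn, Myod1 and Pax7, not called in the main fit, were called lower by DESeq2. Removing the length trend did so for Ttn and Pax7, and the stricter filter for Myod1. Differences between wound groups turned direction in several results. The median over the members ran, over single libraries left out, from -0.29 to 1.53 for HDB against acellular over both sizes, -1.62 to 0.71 at 10 mm, -0.64 to 1.74 for 15 mm against 10 mm in HDB, 0.20 to 2.88 for the interaction and -2.97 to -0.26 for 15 mm against 10 mm in acellular wounds. Without both muscle-poor libraries it was -0.51 in HDB and -0.0055 for the interaction, and with the replicate block -0.019 at 10 mm and -0.13 in HDB. The change of Ttn between HDB and acellular wounds at 15 mm became 0.036 with a replicate block, 0.78 with the length trend removed and 0.98 with both, and ran from -0.86 to 2.26 over single libraries left out. That of Acta1 at 10 mm became 0.039 with the length trend removed and 0.49 without both muscle-poor libraries, and ran from -1.78 to 0.66. The muscle sum at 10 mm ran from -2.15 to 0.56. With single libraries left out, the difference in shares between HDB and acellular wounds ran from -1.41 to -0.285 points for Tnni1, -0.952 to 0.167 for Tnnt1, -0.00272 to 0.0187 for Myh7, -0.685 to 0.487 for Myh3 and Myh8, -1.65 to 3.97 for Actn2, -4.89 to 4.39 for Casq2 and -7.50 to 1.92 for Mybpc1. On the log2 scale, added after seeing the data, the wound share rose by 4.47 for Tnni1 and 3.64 for Tnnt1, now past the threshold, and HDB differed from acellular by 0.023 for Myh3 and Myh8 and -0.018 for Casq2. Low counts limit Tnni1, Tnnc1, Myh3, Myh7, Myl2, Myl3, Myod1 and Pax7, which had fewer than 10 counts in at least 1 sample.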

Other observations

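Genes that act in muscle growth and wasting were among the 43 further muscle genes. Mstn, myostatin, the inhibitor of muscle growth, measured 4.28, 25.3 and 77.6 CPM in acellular 10 mm, 10.8, 75.7 and 0.531 in acellular 15 mm, 148, 0.807 and 20.99 in HDB 10 mm, 21.2, 53.3 and 15.5 in HDB 15 mm, and 248, 292 and 295 in normal skin, a change of -2.94 ± 1.00 (SE), adjusted p = 0.0421. Trim63 and Fbxo32, the ubiquitin ligases MuRF1 and atrogin-1 of muscle wasting, changed by -2.42 ± 0.71 (SE), adjusted p = 0.0232 for the former and -1.28 ± 0.29 (SE), adjusted p = 0.00791 for the latter. Actc1, cardiac actin, which embryonic skeletal muscle also makes, measured 0.856, 6.35 and 13.0 CPM in acellular 10 mm, 0.794, 9.98 and 1.86 in acellular 15 mm, 35.9, 0.377 and 4.66 in HDB 10 mm, 20.6, 31.4 and 3.05 in HDB 15 mm, and 6.74, 25.2 and 4.16 in normal skin, and wounds overlapped normal skin. All 4 were named after their values were seen.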
